A study of Homo sapiens with 6 samples.

Results

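The 50 genes described here carry cells through G2 and mitosis. They were chosen by name, as the rows of the expression files whose NCBI Gene ID belongs to a fixed list of G2/M and mitosis symbols, and all 50 were found among the 16623 genes of the files. This list and the other gene lists used below were chosen with earlier results of these data known. MDA-MB-231 is a human breast cancer line of the triple-negative type. The drug, PCI-24781, inhibits histone deacetylases, and DMSO alone served as the control. Adherent MDA-MB-231 cells were given DMSO alone or the drug at 100 nM or 200 nM and were taken after 24 h or 48 h, which gives 6 conditions with 1 RNA-seq library each. No condition has a replicate, so the differences below could not be checked against the spread between cultures, and no significance test was made. The question put to the data is how the level of these transcripts differed with the dose and the time of treatment.

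Entry into mitosis is driven by the kinase CDK1 bound to cyclin B, and its transcripts belong to a group of genes that are switched on together late in the cell cycle. The MuvB complex, with B-MYB and then FOXM1, binds the promoters of these genes, many of which hold a short element called CHR (cell cycle genes homology region) and CCAAT boxes. In resting cells the same promoters are kept silent by the DREAM complex. Because these transcripts are made mainly in cells that pass through G2 and mitosis, their level in a culture follows how many cells do so. In RNA from a whole culture, fewer cells in G2 and mitosis and less RNA per cell cannot be told apart.

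Promoter sequences are shown for 4 of the members that carry both elements, since these are what many of the genes have in common. The RefSeq promoter table (GRCh38.p14) holds 250 bases before and 50 bases after the start of transcription, and 44 of the 50 members matched an entry. AURKA, BIRC5, FOXM1, TPX2, TTK and UBE2C did not match. The letters searched were TTTGAA or TTCGAA for CHR, CCAAT for the CCAAT box and TTTCGCGC or TTTGGCGC for E2F, on both strands. CHR letters were present in 34 of 44 members (77.3%), against 16.5% of the 13287 genes of the files that have an entry. CCAAT was present in 35 of 44 (79.5%) against 42.6%, and both were present in 27 of 44 (61.4%) against 6.9%. E2F letters were found in 2 of 44 members (4.5%) against 2.2%. Over all 35116 promoters of the table, 16.4% held CHR letters, 34.6% CCAAT, 6.4% both and 1.1% the E2F letters. The elements are not confined to the members. Of 96 other G2/M genes with an entry, 50 (52.1%) held CHR letters, 59 (61.5%) CCAAT, 29 (30.2%) both and 9 (9.4%) E2F letters. Of 40 G1/S and replication genes, 3 (7.5%) held CHR letters, 24 (60%) CCAAT, 3 (7.5%) both and 14 (35%) E2F letters. A match describes the letters in this window and does not show that a factor binds there.

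The 170 bases before the start are given for CCNB2, CDK1, PLK1 and CDC20, which are among the first 6 members of the list with both elements and hold both upstream of the start. BUB1 and MAD2L1 complete those 6 and hold no CHR letters within these 170 bases. Capitals mark CHR letters and CCAAT boxes, and all 4 stretches lie on the plus strand of GRCh38.p14. That of CCNB2 is chr15:59104976-59105145, that of CDK1 chr10:60778161-60778330, that of PLK1 chr16:23678719-23678888 and that of CDC20 chr1:43358811-43358980.
CCNB2: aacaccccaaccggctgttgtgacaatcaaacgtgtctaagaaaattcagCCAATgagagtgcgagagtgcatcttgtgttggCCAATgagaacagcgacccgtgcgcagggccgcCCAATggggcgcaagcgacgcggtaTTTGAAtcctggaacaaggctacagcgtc
CDK1: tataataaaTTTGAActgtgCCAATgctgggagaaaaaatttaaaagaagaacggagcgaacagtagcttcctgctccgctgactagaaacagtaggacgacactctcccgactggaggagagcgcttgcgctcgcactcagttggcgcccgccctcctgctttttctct
PLK1: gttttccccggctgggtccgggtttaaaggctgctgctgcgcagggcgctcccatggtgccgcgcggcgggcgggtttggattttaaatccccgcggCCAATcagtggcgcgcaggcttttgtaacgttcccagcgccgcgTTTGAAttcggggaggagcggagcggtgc
CDC20: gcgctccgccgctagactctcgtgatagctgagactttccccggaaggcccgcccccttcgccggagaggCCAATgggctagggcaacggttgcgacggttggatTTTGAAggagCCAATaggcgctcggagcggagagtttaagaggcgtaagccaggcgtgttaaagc
The CHR letters begin 29 bases before the start in CCNB2 and PLK1, 65 bases before it in CDC20 and 161 bases before it in CDK1. CCNB2 holds 3 CCAAT boxes in this stretch, CDC20 holds 2, and CDK1 and PLK1 hold 1 each. The start used is that of the first entry of each gene that holds both elements. Matches after that start, or at any other annotated start of the gene, are not shown.

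Expression was given by the authors as FPKM, the fragments of a gene scaled by its transcript length and by the mapped fragments of the library. Differences are on the log2(FPKM + 1) scale, which understates the change of genes with low FPKM. A gene was tested in a comparison when its FPKM was at least 1 in either library, and was said to rise or fall when it differed by at least 1.5-fold (0.585 on the log2 scale). A stricter count used 2-fold. All 50 members were tested in every comparison. The files hold no read counts. From the steps between low FPKM values, the depth at 24 h was about 18100000 fragments for DMSO, 17500000 for 100 nM and 17400000 for 200 nM. For the 48 h libraries it was about 17600000, 17900000 and 15700000 in the same order. The estimate depends on the transcript length used, and with 250 bases taken off for the fragment it ran from 20000000 to 23100000. At the lower depths the scarcest member, CENPE, still had about 387 fragments, and the 95% counting interval of a member's log2 ratio of fragments to DMSO, without the pseudocount, was between 0.03 and 0.19 on either side. It covers counting error only, not the spread between cultures.

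The line was checked by its markers. The 5 genes taken as typical of MDA-MB-231, VIM, CD44, CAV1, AXL and MSN, summed to an FPKM of 3298, 3046 and 2887 (24 h) and 3265, 3245 and 2803 (48 h), in the order DMSO, 100 nM, 200 nM that is kept for all values below. The sum was lower at each dose step at both times. VIM, a mesenchymal filament protein, was the most abundant of them, at 1919.9, 1677 and 1696 (24 h) and 2030.0, 2053 and 1629 (48 h). In DMSO 24 h the other 4 lay between 187 for CD44 and 497 for MSN. The hormone receptor genes ESR1 and PGR were at most 0.04 in every library, as was the T cell gene CD3E. The endothelial gene CDH5 was at most 0.03 and the fibroblast gene DCN at most 0.07. Summed FPKM over 3 fibroblast genes was 2.07, 4.31 and 9.37 (24 h) and 3.87, 2.68 and 6.92 (48 h), most of it from COL1A1. Over the 2 endothelial genes it was 0.39, 0.67 and 1.26 (24 h) and 1.55, 1.10 and 2.35 (48 h), nearly all from PECAM1. The 2 leukocyte genes found of 3 summed to between 0.76 and 1.05, with PTPRC the more abundant. The 6 luminal genes summed to 92.3, 68.5 and 64.9 (24 h) and 88.4, 104 and 83.3 (48 h), with KRT8 the most abundant. The fibroblast and endothelial sums were thus higher at each dose step at 24 h, from low levels, and their part in the results below was not tested. COL1A1, a collagen gene, had the largest rise of these markers at 200 nM of both times, at 1.66, 2.99 and 6.68 (24 h) and 2.55, 1.65 and 4.72 (48 h). EPCAM, an epithelial adhesion gene, had the largest fall at 200 nM 24 h, at 4.70, 2.81 and 2.26 (24 h) and 2.99, 3.56 and 2.35 (48 h). The difference was -0.81, and against DMSO 48 h -0.29.

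The members were lowest as a group in the treated 48 h libraries and at 200 nM 24 h. Their summed FPKM was 3518, 3415 and 2943 (24 h) and 3115, 2916 and 2801 (48 h). By this sum DMSO 24 h was the highest library and DMSO 48 h was already below it. The members' median FPKM was instead highest at 100 nM 24 h, at 52.46 against 51.1 in DMSO 24 h. Of the 50 members, 24 had their highest FPKM in DMSO 24 h, where 26% of the 11893 genes that reached an FPKM of 1 anywhere had theirs. A further 22 members were highest at 100 nM 24 h, against 10.4% of all genes. The lowest FPKM was in the 100 nM 48 h library for 18 members, in that of 200 nM 24 h for 14 and in that of 200 nM 48 h for 14, against 20%, 23.3% and 14.3% of all genes. These counts by library were chosen after the values were seen. Levels differed widely between members, from 2.61 for CENPE in DMSO 48 h to 374 for PTTG1 in the same library.

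**Figure D1:**
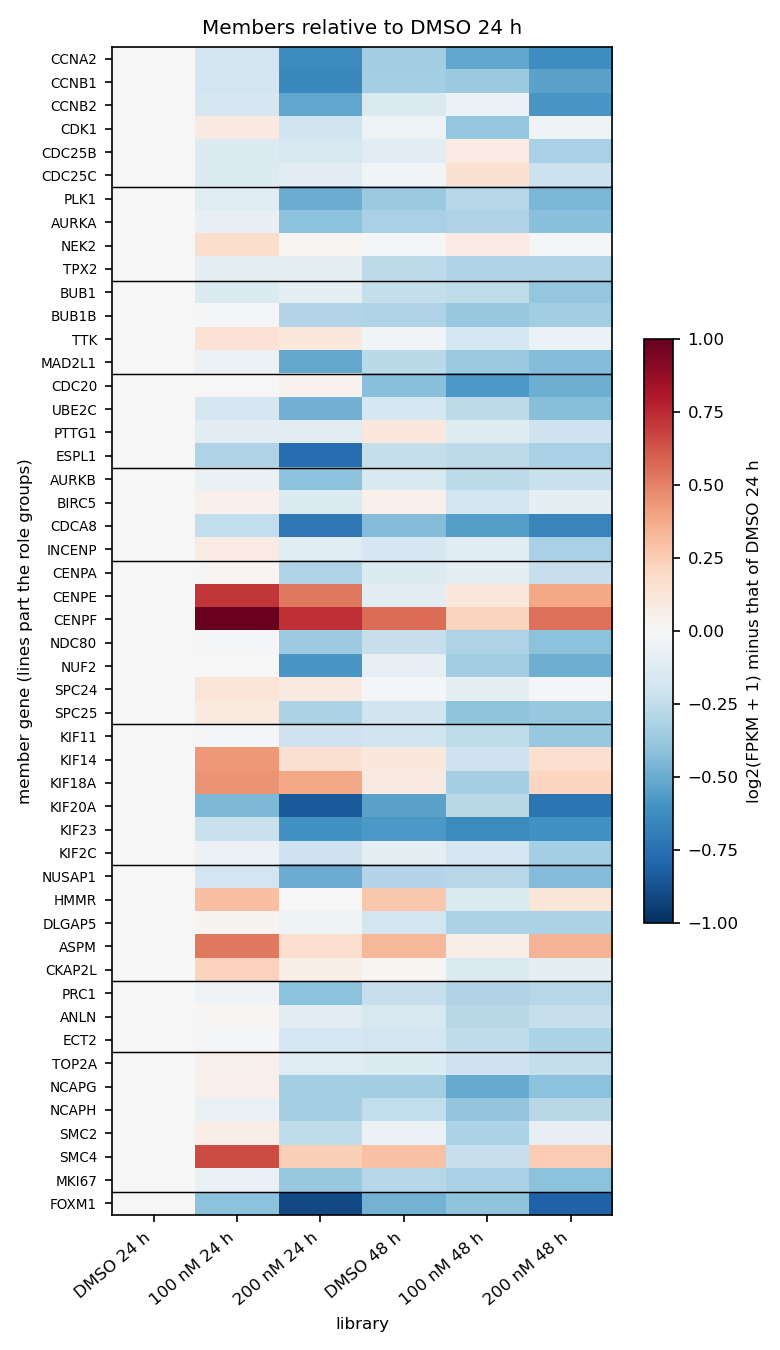
Heat map of the 50 members (rows, grouped by role) in the 6 libraries (columns), as log2(FPKM + 1) minus that of DMSO 24 h, with blue lower and red higher. The 200 nM 24 h column is mostly blue, with CENPF (0.73) and CENPE (0.53) as the reddest cells in it.

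At 200 nM 24 h, 7 members fell and 1 rose against DMSO 24 h. The median over the members was -0.21, against 0.01 over the 11660 tested genes, and 39 of the 50 were lower, against 48.6% of tested genes. The background for a fall of 1.5-fold was 7.62% of tested genes and that for a rise was 12.5%. So 7 of 50 is above the background share for falls, and 1 of 50 is below that for rises. No member passed 2-fold, where 4.49% of tested genes were higher and 1.48% lower. The members that fell were FOXM1, KIF20A, ESPL1, CDCA8, CCNB1, CCNA2 and KIF23, and the one that rose was CENPF. NUF2, at -0.58, lay just short of the threshold, and KIF23, at -0.60, just past it. These counts rest on the DMSO 24 h library. With DMSO 48 h as the reference in its place, 0 members fell, against 5.26% of 11710 genes, and the median was -0.094 against 0.007. The member that then rose was CENPE (0.63), not CENPF (0.18), and 1 of 50 is below the background of 4.48% for rises. Against DMSO 24 h the 34 members with CHR letters had a median of -0.2, and the 10 members with a promoter entry but no such letters -0.272. For 100 nM 24 h these medians were -0.004 and -0.071. Against DMSO 48 h they were -0.09 and -0.077 for 100 nM 48 h, and -0.106 and -0.128 for 200 nM 48 h. The part of the CHR letters in the differences was not tested.

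At 100 nM 24 h no member fell and 3 rose, CENPF, CENPE and SMC4. The median was -0.01 against 0.01 over 11475 tested genes, with 28 members lower, against 48.1% of tested genes, and 22 higher. Background shares at 1.5-fold were 5.58% higher and 1.25% lower, so 3 of 50 is close to the background. With DMSO 48 h as the reference, CENPE alone rose (0.82), against 0.909% of 11556 genes, no member fell, against 2.77%, and the median turned to 0.171 against 0.014. Against DMSO 24 h, 1.35% of tested genes were at least 2-fold higher and 0.131% lower, and no member passed, though CENPF came close at 0.99. Between the doses at 24 h the median was -0.29 against -0.01 over 11651 genes. At 200 nM 46 of 50 members were lower than at 100 nM, against 50.6% of genes. None of them passed 1.5-fold, where the background was 3.09% higher and 2.15% lower, nor 2-fold, with 0.343% higher and 0.18% lower. FPKM stepped down from DMSO to 100 nM to 200 nM in 24 of 50 members at 24 h, against 30.7% of 11708 genes, and stepped up in 0, against 32.2% of them, counts chosen after the values were seen. The 3 comparisons among these libraries share them in pairs, so their errors are not independent.

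By 48 h no member passed 1.5-fold at either dose. CENPF, SMC4 and CDKN1A, named after their values were seen, were above their own DMSO library at 100 nM 24 h and below it at 100 nM 48 h. Against DMSO 24 h, the 100 nM 48 h values of CENPF and CDKN1A were also above it, by 0.22 and 0.92, and SMC4 was -0.23. With DMSO 48 h as the reference at both times, CENPF and SMC4 kept opposite signs, at 0.43 and 0.36 for 100 nM 24 h. CDKN1A was then below it at both times, at -0.52 for 100 nM 24 h. Time, a property of 1 library, DMSO included, and swapped labels cannot be told apart here, and the 48 h values are given with this limit. The median at 100 nM 48 h was -0.08 against -0.01 over 11514 genes, with 38 of 50 lower, against 52.4% of genes. Background shares there were 0.504% higher and 1.76% lower at 1.5-fold, and 0.0608% and 0.408% at 2-fold. At 200 nM 48 h the median was -0.11 against 0.01 over 11665 genes, with 43 of 50 lower, against 48.6% of genes. The background was 1.53% higher and 0.463% lower at 1.5-fold, and 0.206% and 0.06% at 2-fold. Between the doses at 48 h the median was -0.04 against 0.01 over 11694 genes, with 27 of 50 lower, against 47.8% of genes. No member passed 1.5-fold there (5.6% of genes higher, 2.37% lower) or 2-fold (1.71% and 0.291%). A step down with dose at 48 h was seen in 16 of 50 members, against 11.3% of 11722 genes, and a step up in CENPE alone, against 10.2%.

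The DMSO libraries differed as well. Against DMSO 24 h, DMSO 48 h had a member median of -0.17, with 41 of 50 lower. Over 11490 genes the median was -0.003 and 50.2% were lower. No member passed 1.5-fold (8.51% of genes higher, 1.95% lower) or 2-fold (2.49% and 0.131%), and KIF23 came closest at -0.58. Time in culture and a property of 1 library cannot be told apart in this design. Measured against DMSO 24 h, the 200 nM 48 h library had 6 members at least 1.5-fold lower, against 5.2% of 11669 genes, and 0 higher, against 12.4%, with a median of -0.32 against 0.002. The 100 nM 48 h library had 1 lower, against 2.64% of 11367 genes, and 0 higher, against 6.89%, with a median of -0.27 against -0.012.

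**Figure D2:**
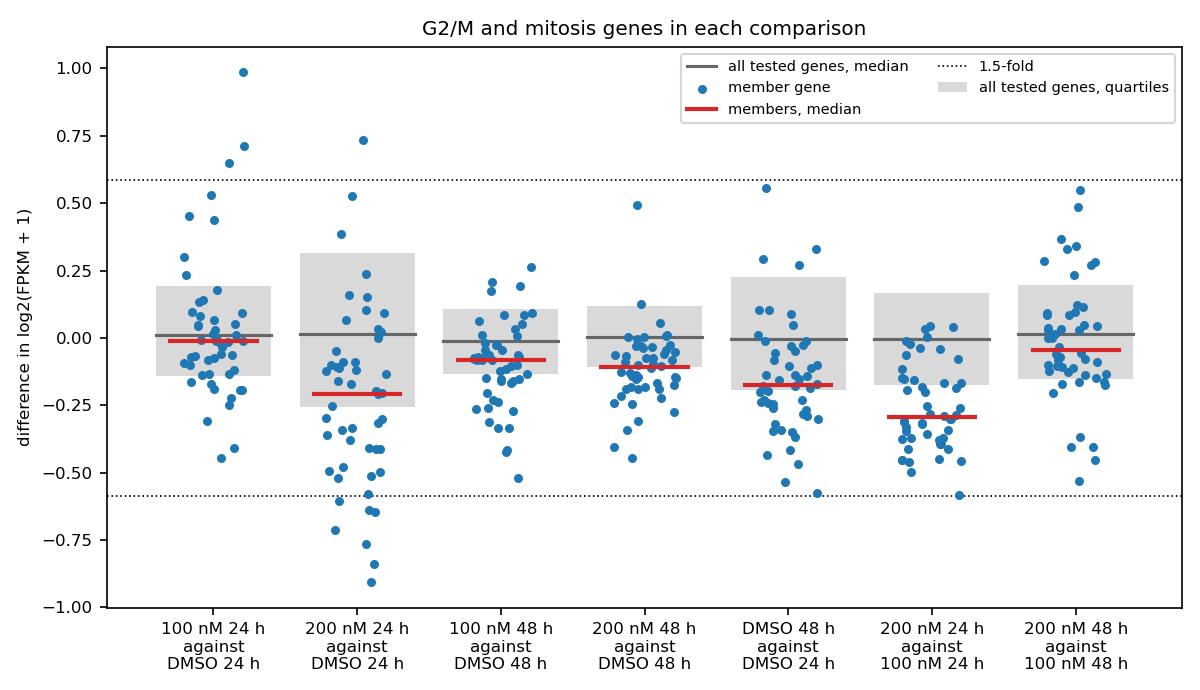
Difference in log2(FPKM + 1) of each member (points) in the 7 comparisons, with the median over members in red, the median and quartiles over all tested genes in grey, and dotted lines at 1.5-fold. Only the 2 comparisons of 24 h treatment with DMSO 24 h have members past the dotted lines, 3 above at 100 nM and 1 above and 7 below at 200 nM.

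Among the mitotic cyclins and their kinase, CCNB1 and CCNA2 fell at 200 nM 24 h. CCNB1, which encodes cyclin B1, lies on chromosome 5 from 68462837 to 68474072 (hg19, by the submitters' processing notes) and had an FPKM of 138, 121 and 88.1 (24 h) and 109, 107 and 95.3 (48 h). The 200 nM 24 h value was the lowest of the 6, and the difference from DMSO 24 h was -0.65. CCNA2, for cyclin A2 (chromosome 4, 122737488 to 122745088), had values of 67.6, 59.2 and 43.1 (24 h) and 52.9, 46.95 and 43.5 (48 h), a difference of -0.64 at 200 nM 24 h. The other B-type cyclin gene, CCNB2, was at 72.3, 64.4 and 50.1 (24 h) and 65.4, 69.5 and 47.8 (48 h). It was -0.52 at 200 nM 24 h and -0.44 at 200 nM 48 h, both short of 1.5-fold. CDK1 itself gave 85.4, 91.2 and 74.4 (24 h) and 82.5, 65.2 and 82.95 (48 h), and was lowest at 100 nM 48 h. For the phosphatases that activate CDK1, CDC25B was at 75.6, 68.6 and 67.5 (24 h) and 69.95, 80.1 and 60.2 (48 h). CDC25C values were 16.3, 14.8 and 15.1 (24 h) and 16.0, 18.2 and 13.9 (48 h). Both were highest at 100 nM 48 h and lowest at 200 nM 48 h. All 6 genes of this group were lower than DMSO 24 h at 200 nM 24 h, with a median of -0.36, and lower than DMSO 48 h, with a median of -0.218.

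The mitotic kinases PLK1 and AURKA were lower at 200 nM 24 h without passing the threshold. PLK1, needed for spindle poles and mitotic exit, was at 89.6, 82.4 and 63.2 (24 h) and 69.2, 73.4 and 64.9 (48 h), a difference of -0.50. AURKA, a spindle pole kinase, had 101, 95.9 and 76.0 (24 h) and 81.0, 81.6 and 75.5 (48 h), a difference of -0.41. In both the DMSO 24 h value was the highest. TPX2, the protein that activates AURKA on spindles, gave 178, 167 and 167 (24 h) and 149, 144 and 144 (48 h), and the centrosome kinase NEK2 gave 37.03, 42.04 and 37.6 (24 h) and 36.7, 39.2 and 36.8 (48 h). NEK2 was highest at 100 nM 24 h, and its remaining 5 values lay between 36.7 and 39.2. The median over these 4 genes was -0.25 at 200 nM 24 h, and -0.028 against DMSO 48 h.

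Of the 4 spindle assembly checkpoint genes, which delay anaphase until chromosomes are attached, none passed 1.5-fold. BUB1 was at 91.98, 83.7 and 86.3 (24 h) and 77.8, 76.8 and 70.2 (48 h), highest in DMSO 24 h. TTK, the kinase MPS1, was at 31.7, 35.1 and 34.1 (24 h) and 31.04, 27.9 and 30.3 (48 h), with the 24 h treated libraries above DMSO. MAD2L1 had the lowest difference of the group at 200 nM 24 h, -0.51, and BUB1B was -0.30. With DMSO 48 h as the reference, the median of the 4 turned from -0.194 to 0.067, with 1 of 4 lower.

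Among the partners of the anaphase-promoting complex, ESPL1, the gene of separase, fell at 200 nM 24 h. Its FPKM was 9.26, 7.29 and 5.04 (24 h) and 7.69, 7.54 and 7.21 (48 h), a difference of -0.76 from a low level. CDC20, which activates the complex, had 176, 175 and 179.8 (24 h) and 132, 118 and 125 (48 h). Its 24 h values were all above its 48 h values. UBE2C, the ubiquitin-conjugating enzyme of the complex, was at 198, 176 and 142 (24 h) and 175, 165 and 147 (48 h), with -0.48 at 200 nM 24 h. The securin gene PTTG1 was the most abundant member, at 348, 325 and 322 (24 h) and 374, 318 and 302 (48 h), highest in DMSO 48 h.

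The chromosomal passenger complex corrects faulty attachments and directs cytokinesis. Its subunit borealin, encoded by CDCA8 on chromosome 1 from 38158073 to 38175391 (hg19), had 45.3, 37.9 and 27.2 (24 h) and 33.2, 30.5 and 28.3 (48 h) and fell by 0.71 on the log2 scale at 200 nM 24 h. The kinase gene AURKB was at 51.5, 49.1 and 38.5 (24 h) and 46.2, 42.9 and 44.1 (48 h), lowest at 200 nM 24 h. BIRC5, for survivin, was at 50.7, 52.5 and 46.1 (24 h) and 52.5, 44.4 and 47.4 (48 h), lowest at 100 nM 48 h. INCENP, the scaffold, differed by -0.12 at 200 nM 24 h. All 4 were lower than DMSO of the same time in both 200 nM libraries, with medians of -0.27 at 24 h and -0.15 at 48 h. With the DMSO library of the other time, 3 of 4 were lower at 24 h, with a median of -0.22, and 4 of 4 at 48 h, with a median of -0.272.

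Centromere and kinetochore genes held the largest rise. CENPF, a large kinetochore protein encoded on chromosome 1 from 214776532 to 214837914 (hg19), was at 21.0, 42.6 and 35.6 (24 h) and 31.3, 24.6 and 31.3 (48 h). DMSO 24 h was the lowest library and 100 nM 24 h the highest, a difference of 0.99, and at 200 nM 24 h the difference was 0.73. The rise depends on which DMSO library is the reference, since DMSO 48 h was itself 0.55 above DMSO 24 h, and against DMSO 48 h the differences were 0.43 and 0.18. CENPE, a kinesin that moves chromosomes to the spindle equator, had 2.88, 5.36 and 4.59 (24 h) and 2.61, 3.17 and 4.08 (48 h). It was above DMSO in all 4 treated libraries, by 0.71 and 0.53 at 24 h, then by 0.21 and 0.49 at 48 h, at a level where the pseudocount holds the fold down. CENPA, the centromeric histone, was at 27.3, 27.6 and 21.97 (24 h) and 24.8, 25.4 and 23.1 (48 h). NDC80, the microtubule-binding subunit of the outer kinetochore, was at 48.99, 48.5 and 37.9 (24 h) and 41.6, 39.3 and 36.6 (48 h), and its partner NUF2 at 55.7, 55.7 and 36.9 (24 h) and 52.6, 43.6 and 39.5 (48 h). Both were lowest in the 200 nM libraries. Of the remaining NDC80 complex genes, SPC25 was -0.31 and SPC24 was 0.09 at 200 nM 24 h.

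Of 6 mitotic kinesin genes, KIF20A and KIF23 fell at 200 nM 24 h. KIF20A, a kinesin of the central spindle on chromosome 5 from 137514417 to 137523404 (hg19), had 76.8, 56.1 and 42.5 (24 h) and 52.6, 63.3 and 45.99 (48 h), and fell by 0.84 on the log2 scale at 200 nM 24 h. Its difference at 100 nM was -0.45 at 24 h and 0.26 at 48 h, and with the DMSO library of the other time these were 0.09 and -0.27. KIF23, which works in cytokinesis, had 39.9, 34.0 and 25.9 (24 h) and 26.4, 25.2 and 25.9 (48 h) and fell by 0.60 on the log2 scale at 200 nM 24 h. DMSO 24 h stood above the other libraries of KIF23, and the 3 values at 48 h were nearly equal. KIF11, which pushes spindle poles apart, was at 48.3, 47.9 and 41.8 (24 h) and 42.1, 40.3 and 36.9 (48 h). KIF18A, which dampens chromosome movements, was at 18.6, 25.8 and 24.6 (24 h) and 19.8, 14.5 and 21.8 (48 h), and KIF14, a kinesin of cytokinesis, at 12.2, 16.8 and 13.6 (24 h) and 13.1, 10.4 and 13.7 (48 h). Both were highest at 100 nM 24 h and lowest at 100 nM 48 h. KIF2C was -0.21 at 200 nM 24 h.

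**Figure D3:**
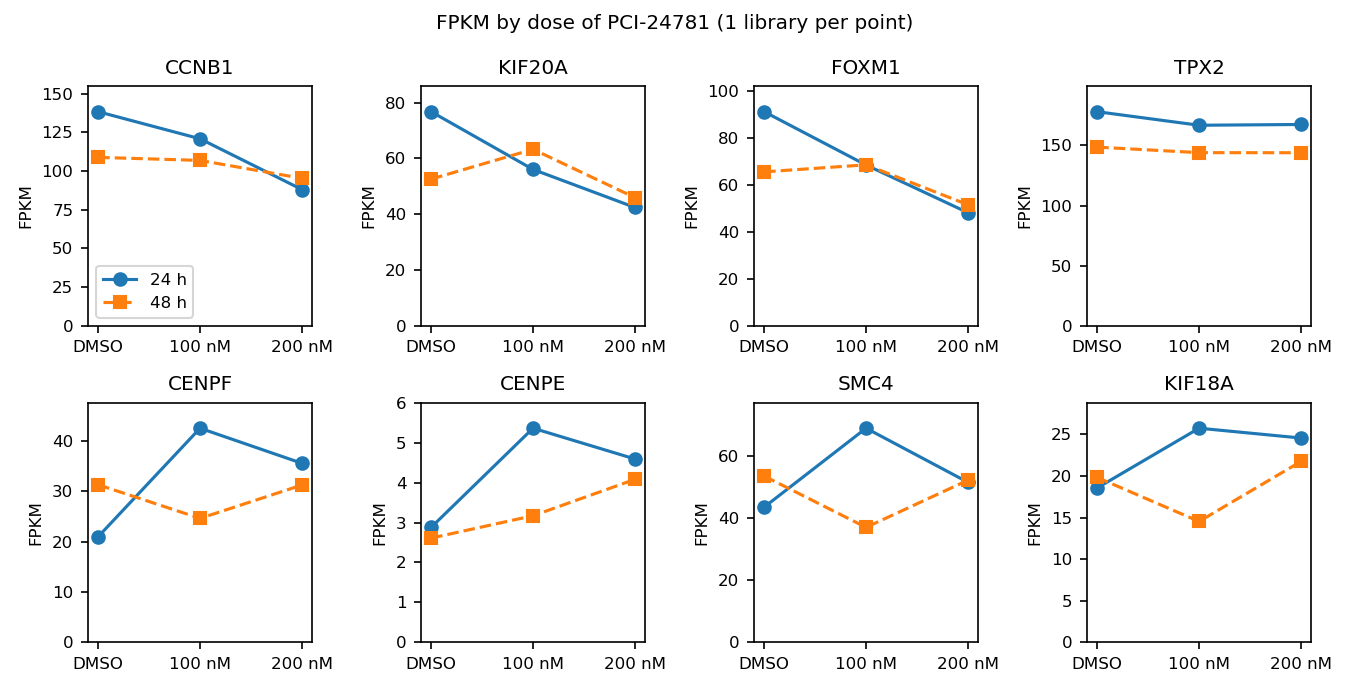
FPKM of 8 members, chosen after their values were seen, against dose (DMSO, 100 nM, 200 nM), with 24 h in blue circles and 48 h in orange squares and 1 library per point. CCNB1, KIF20A and FOXM1 step down with dose at 24 h, and CENPF, CENPE, SMC4 and KIF18A are highest at 100 nM 24 h.

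In the roles named spindle microtubule proteins and cytokinesis, which leave out the kinesins, no gene passed 1.5-fold. ASPM, a spindle pole protein, was at 13.6, 20.1 and 15.4 (24 h) and 17.4, 14.3 and 17.6 (48 h), a difference of 0.53 at 100 nM 24 h. HMMR, another spindle protein, had 9.17, 11.5 and 9.16 (24 h) and 11.3, 8.19 and 10.1 (48 h). Both were above their own DMSO library at 100 nM 24 h and below it at 100 nM 48 h. With the DMSO library of the other time, ASPM was 0.20 and 0.06, so its sign at 48 h depends on the reference, and HMMR was 0.03 and -0.15. At 200 nM 24 h NUSAP1 was -0.50, DLGAP5 -0.05 and CKAP2L 0.07. Of the cytokinesis genes, PRC1 was -0.41, ECT2 -0.17 and ANLN -0.11 in that comparison. With DMSO 48 h as the reference, the median of these 3 turned from -0.17 to 0.011, with 1 of 3 lower.

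Among chromosome structure genes SMC4, a core subunit of condensin, rose at 100 nM 24 h. It was at 43.7, 69.1 and 51.7 (24 h) and 53.7, 37.1 and 52.3 (48 h), a difference of 0.65. Against DMSO 48 h that difference was 0.36, short of the threshold. At 100 nM 48 h it was the lowest of the 6 libraries, -0.52 against DMSO 48 h. The other condensin genes among the members, SMC2, NCAPG and NCAPH, were 0.07, 0.05 and -0.07 at 100 nM 24 h. Outside the members, NCAPD2, NCAPD3, NCAPG2 and NCAPH2 were -0.03, -0.36, -0.24 and -0.30 there, named after their values were seen. TOP2A, the topoisomerase that untangles sister chromatids, was at 179, 185 and 164 (24 h) and 163, 155 and 151 (48 h). MKI67, for the proliferation antigen Ki-67, was at 102, 96.9 and 77.97 (24 h) and 83.5, 80.9 and 76.4 (48 h). Each was lowest at 200 nM 48 h, and MKI67 was -0.38 at 200 nM 24 h.

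FOXM1, the transcription factor of the group, had the largest fall of any member at 200 nM 24 h against DMSO 24 h. It lies on chromosome 12 from 2966847 to 2986321 (hg19) and its FPKM was 91.4, 68.6 and 48.3 (24 h) and 65.7, 68.7 and 51.7 (48 h). The difference from DMSO was -0.41 and -0.91 for the 24 h doses, then 0.06 and -0.34 for the 48 h doses. The counting interval of its log2 fragment ratio at 200 nM 24 h was 0.065 on either side. Against DMSO 48 h the 24 h differences were 0.06 and -0.44, short of the threshold. With that reference ESPL1 (-0.525) and NUF2 (-0.499) were lower than FOXM1 at 200 nM 24 h. Against DMSO 24 h the 48 h differences of FOXM1 were -0.41 and -0.81.

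The relation of the members' differences to the GC content of their transcripts varied in sign and size between the comparisons. Transcript GC content was known for all 50, with a median of 43% (35.3% to 59.9%) against 49.9% over 16255 genes. Across members, Spearman's rho between GC content and the log2 difference was -0.57 for 100 nM and -0.38 for 200 nM at 24 h, then 0.49 and -0.35 at 48 h (n = 50). Over all tested genes rho was -0.10, 0.06, 0.33 and -0.17. Between the doses the members' rho was 0.02 at 24 h, where 46 of 50 were lower at 200 nM, and -0.56 at 48 h, against 0.20 and -0.32 over all genes. For DMSO 48 h against DMSO 24 h, with no drug, it was -0.36 against 0.10. Split at 40% GC, a limit chosen after the values were seen, the 16 members below it had medians of 0.08 and -0.09 for the 24 h doses, then -0.21 and -0.05 for the 48 h doses. The other 34 had -0.08, -0.33, -0.07 and -0.13. Over all tested genes the medians were 0.074, 0.003, -0.115 and 0.029 below 40% GC and between 0 and 0.016 at 40% or more. With transcript length the members' rho was 0.29, 0.26, -0.10 and 0.36, against 0.03, 0.02, 0.01 and 0.16 over all tested genes. These correlations are across genes, which are not independent, and both doses of a time use the same DMSO library. The part of base composition in the differences was not tested. After centring on genes of similar GC content and length, chosen after seeing the data, SMC4 was 0.55 at 100 nM 24 h, short of the threshold. CENPF was 0.966 there. At 200 nM 24 h the member median was then -0.24, FOXM1 was -0.906, and NUF2 passed the threshold at -0.628.

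**Figure D4:**
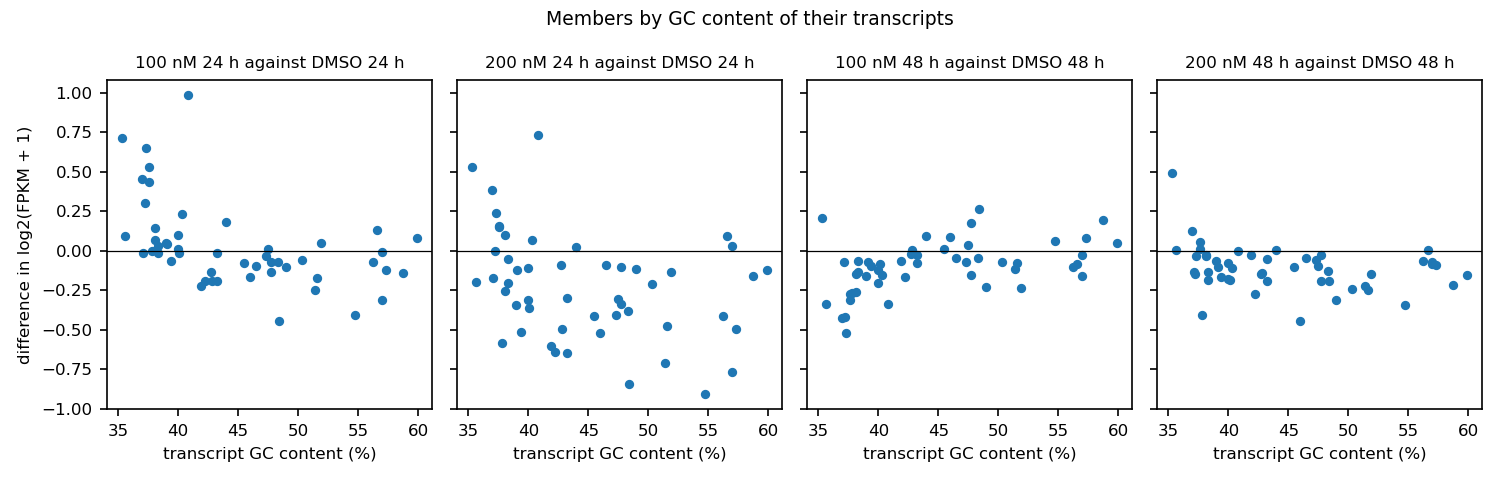
Difference in log2(FPKM + 1) of each member against the GC content of its transcripts (%), 1 panel for each comparison with DMSO of the same time and 1 point per gene. At 100 nM the points slope down at 24 h (rho -0.57) and up at 48 h (rho 0.49).

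Other genes of G2 and mitosis were lower at 200 nM 24 h as well. Of 114 such genes, 24 were at least 1.5-fold lower there, against 7.62% of tested genes, and 1, SGO2, was higher, against 12.5%. The median was -0.27, and 94 of 114 were below 0, against 48.6% of tested genes. At 100 nM 24 h, PMF1 was lower and SGO2 and KIF20B were higher by this rule, 3 genes named after their values were seen. This is 1 of 114 against 1.25% and 2 of 114 against 5.58%, with a list median of -0.07. With DMSO 48 h as the reference that median turned to 0.131, with 25 of 114 lower. Then 0 genes were at least 1.5-fold lower, with PMF1 at -0.556, against 2.77% of tested genes, and 2 higher, against 0.909%. DMSO 48 h against DMSO 24 h gave a list median of -0.22 with 89 of 114 lower, and with DMSO 48 h as the reference 2 genes, not 24, were at least 1.5-fold lower at 200 nM 24 h, against 5.26% of tested genes, with a median of -0.064. The largest fall at 200 nM of either time was in PMF1, at 31.0, 15.9 and 12.5 (24 h) and 23.8, 23.3 and 15.1 (48 h), but PMF1 overlaps a readthrough gene and its value is uncertain. SGO2, which protects cohesion at centromeres, had the largest rise at 200 nM 24 h (0.83) and was at 13.2, 27.6 and 24.2 (24 h) and 19.7, 12.9 and 24.7 (48 h). It was highest at 100 nM 24 h and lowest at 100 nM 48 h. Against DMSO 48 h the 24 h differences of SGO2 were 0.47 and 0.29, short of the threshold, and KIF20B was the gene past it at 200 nM (0.595). KIF20B, at 7.76, 13.7 and 12.1 (24 h) and 7.65, 7.16 and 11.9 (48 h), was the highest of them at 200 nM 48 h (0.58), short of the threshold. MYBL2, for B-MYB, was at 53.3, 43.2 and 33.6 (24 h) and 33.3, 35.5 and 29.8 (48 h) and fell by 0.65 on the log2 scale at 200 nM 24 h. Its difference was 0.01 against DMSO 48 h, so the fall of MYBL2 rests on the DMSO 24 h library.

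LIN9, a MuvB subunit, was at 8.96, 6.64 and 4.83 (24 h) and 6.27, 6.47 and 5.64 (48 h), and the CDK1-inhibiting kinase gene PKMYT1 at 24.9, 22.2 and 15.4 (24 h) and 19.4, 16.7 and 16.7 (48 h). Both fell at 200 nM 24 h, by 0.77 for LIN9 and by 0.65 for PKMYT1, and against DMSO 48 h they were -0.32 and -0.31, short of the threshold. WEE1, a kinase with the same target, was at 17.7, 18.1 and 14.2 (24 h) and 18.03, 17.4 and 16.8 (48 h). CCNF, for cyclin F, was at 15.2, 14.2 and 11.7 (24 h) and 11.7, 10.95 and 12.2 (48 h). Neither passed 1.5-fold against DMSO of the same time.

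More of the G1/S and replication genes fell at 200 nM 24 h. Of 46, which include CDC25A, also counted above, 25 were at least 1.5-fold lower, against 7.62% of tested genes, and 5 at least 2-fold lower, against 1.48%, with a median of -0.62. The median over the 46 was -0.18 for 100 nM 24 h and, after 48 h, -0.07 and -0.06 for the doses, and -0.39 in DMSO 48 h against DMSO 24 h. With DMSO 48 h as the reference, 3 of the list were at least 1.5-fold lower at 200 nM 24 h, against 5.26% of tested genes, and the median was -0.189. The 100 nM 24 h median then turned to 0.226, with 7 of 46 lower. At that dose 3 were at least 1.5-fold higher, against 0.909% of tested genes. Measured against DMSO 24 h, the 48 h medians were -0.444 and -0.46, with 15 of 46 at least 1.5-fold lower at 100 nM, against 2.64% of genes, and 13 at 200 nM, against 5.2%. The 5 genes at least 2-fold lower against DMSO 24 h were TYMS, CCNE2, UNG, MCM5 and MCM6, named after their values were seen. TYMS (-1.38), MCM5 (-0.87) and MCM6 (-0.62) were past 1.5-fold against DMSO 48 h too, and CCNE2 (-0.28) and UNG (-0.545) were not. TYMS, the enzyme of thymidylate synthesis, had the largest fall, with 153, 88.2 and 38.4 (24 h) and 102, 97.4 and 79.1 (48 h). E2F1, at 26.3, 25.01 and 17.4 (24 h) and 22.7, 19.4 and 24.6 (48 h), was -0.57 at 200 nM 24 h. TK1, for thymidine kinase, was the highest of the list there (0.14), at 99.3, 92.02 and 109.7 (24 h) and 93.7, 94.96 and 85.9 (48 h). E2F2, the highest at 200 nM 48 h (0.27), was at 3.35, 3.90 and 3.22 (24 h) and 2.59, 2.74 and 3.32 (48 h).

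Among 17 genes that brake the cell cycle, 13 were tested. At 200 nM 24 h, CDKN1A, CDKN1C and PLK2 rose and CCNG1 fell, which is 3 of 13 against 12.5% of tested genes and 1 of 13 against 7.62%. At 100 nM 24 h CDKN1A and CDKN1C rose, against 5.58%. With DMSO 48 h as the reference, 1 of the 13 was higher, against 4.48%, and 2 lower, against 5.26%, at 200 nM 24 h, and the median turned from 0.25 to -0.102. CDKN1C, named after its values were seen, was low, at 0.65, 1.48 and 2.72 (24 h) and 3.91, 3.41 and 4.23 (48 h). Its DMSO 48 h value was above both treated values at 24 h. CDKN1A, for the CDK inhibitor p21, had 13.2, 30.6 and 48.8 (24 h) and 44.3, 25.8 and 52.9 (48 h). DMSO 24 h was the lowest library, and the differences from DMSO were 1.16 and 1.81 at 24 h, then -0.76 and 0.25 at 48 h. DMSO 48 h was 1.67 above DMSO 24 h, close to the 200 nM 24 h value. Against DMSO 48 h the differences of CDKN1A at 24 h were -0.52 and 0.14, and against DMSO 24 h those at 48 h were 0.92 and 1.93. GADD45A, a stress gene, was at 23.3, 30.9 and 31.7 (24 h) and 34.5, 26.3 and 38.9 (48 h). CCNG1, an atypical cyclin, had the largest fall of the list at 200 nM 24 h (-0.72), at 43.5, 31.4 and 26.1 (24 h) and 46.1, 50.3 and 37.3 (48 h). PLK2, the highest at 200 nM 48 h (0.38), was at 56.6, 74.7 and 108 (24 h) and 49.7, 41.95 and 64.8 (48 h). The CDK inhibitor gene CDKN2C, the lowest there (-0.32), was at 36.04, 31.2 and 31.3 (24 h) and 31.7, 32.03 and 25.1 (48 h).

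**Figure D5:**
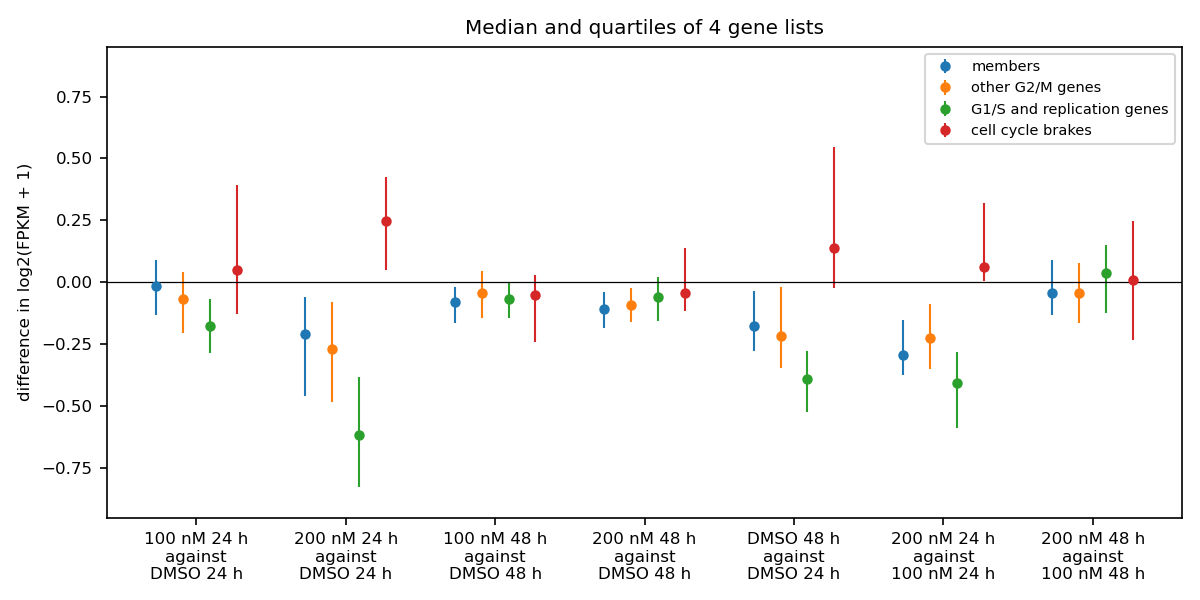
Median (points) and quartiles (bars) of the difference in log2(FPKM + 1) for the members and 3 other gene lists in the 7 comparisons. At 200 nM 24 h the G1/S and replication genes are lowest (-0.62), the members and other G2/M genes lie at -0.21 and -0.27, and the cell cycle brakes are above 0 (0.25), but with DMSO 48 h as the reference, not plotted, these medians were -0.189, -0.094, -0.064 and -0.102.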

How the data were processed

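The authors deposited expression per gene as FPKM for 6 libraries, 1 per condition. The submitters' processing notes name Bowtie2, RSEM and hg19, with versions not given in the sources used here, and the file headers name no build. A RefSeq table (GRCh38.p14) gave a symbol for 16585 of the 16623 NCBI Gene IDs. The members and lists were chosen with earlier results of these data known. Differences in log2(FPKM + 1) were taken for 7 comparisons, with the filter and folds given above, and no significance test was run. Genes given in full are 25 members chosen by name, the 5 lowest and 5 highest members in each of the 4 comparisons with DMSO of the same time, and the extremes and chosen regulators of the other lists. Transcript length and GC content came from GENCODE release 29. Depth was estimated from genes with 1 transcript. Alternatives were pseudocounts of 0.1 and 0.01, other filters, rescaling to TPM or by median-of-ratios factors, other DMSO references and centring on GC content and length. The centring, and the use of the alternatives for roles, other lists and other genes, were chosen after seeing the data. Python 3.11.15, numpy 2.4.6, pandas 2.3.3, scipy 1.17.1 and matplotlib 3.10.9 were used.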

Additional observations from a re-analysis of the deposited data

Results flagged for a closer look

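For 2 members the difference from DMSO at 100 nM had opposite signs at the 2 times, with a change of at least 1.5-fold at one of them. CENPF was 0.99 at 24 h and -0.33 at 48 h, a gap of 1.32 on the log2 scale. SMC4 was 0.65 at 24 h and -0.52 at 48 h, a gap of 1.17. The sign of CENPF at 48 h depends on the DMSO library. Against DMSO 24 h the 100 nM 48 h value was 0.22 for CENPF, so its sign was then the same at both times, and -0.23 for SMC4. Against DMSO 48 h the 100 nM 24 h values were 0.43 and 0.36. With 1 library per condition, the difference between the times was not tested, and time, 1 unusual library, DMSO included, or swapped labels cannot be told apart.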

How the results depend on the processing

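A replicate block could not be fitted because each condition has 1 library, and a model with dose and time as additive terms was not run. Of 57 member medians under the alternatives, 52 moved by less than 0.1, and of 228 counts of members past a fold, 22 moved by more than 1.5 times. Of the 28 reported counts 25 were 0, which says little on stability, and of the 27 alternative values for the other 3 counts 7 moved. The DMSO reference mattered most. With the DMSO library of the other time, the 24 h medians were 0.171 for 100 nM and -0.094 for 200 nM, and the 48 h medians were -0.27 and -0.319. Members at least 1.5-fold higher were then 1 at 100 nM 24 h, and members at least 1.5-fold lower were 0 at 200 nM 24 h, and 48 h of treatment gave 1 at 100 nM and 6 at 200 nM. With the mean of both DMSO libraries, the median at 200 nM 48 h was -0.225, against 0.003 over 11711 genes. With that reference 0 members were at least 1.5-fold higher at 200 nM 24 h and 2 lower. At 200 nM 24 h, the DMSO library of the other time took KIF23 from -0.60 to -0.03 and CENPF from 0.73 to 0.18. Among other genes named, a choice made after seeing the data, calls that changed sign with that library were CDKN1A at 100 nM 24 h (-0.518) and 100 nM 48 h (0.919), CDKN1C at 100 nM 24 h (-0.985) and 200 nM 24 h (-0.4) and MYBL2 at 200 nM 24 h (0.011). With the mean of both DMSO libraries they were CDKN1C at 100 nM 24 h (-0.199) and CDKN1A at 100 nM 48 h (0.082). Pseudocounts of 0.1 and 0.01 and TPM each gave 1 member at least 2-fold higher at 100 nM 24 h, 2 at least 1.5-fold higher at 200 nM 24 h, 1 at least 1.5-fold higher at 200 nM 48 h and 1 at least 1.5-fold lower in DMSO 48 h against DMSO 24 h. Both pseudocounts also gave 1 member at least 1.5-fold lower at 200 nM 24 h against 100 nM 24 h. Centring on genes of similar GC content and length, chosen after seeing the data, gave 1 member at least 1.5-fold higher in DMSO 48 h against DMSO 24 h and 1 at least 1.5-fold lower at 200 nM 48 h against 100 nM 48 h. It gave no value for COL1A1, which had no transcript length or GC content. Shares of all tested genes are not given for the mean of both DMSO libraries, the pseudocounts, TPM or the centring. The member counts under those settings therefore have no background beside them. The cause of these shifts was not tested.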
